A study of Mus musculus with 13 samples.

Results

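Protein disulfide isomerases (PDIs) and the oxidoreductases that work beside them were followed by ribosome footprint profiling in mouse fibroblasts under ER stress. They were chosen by gene symbol, and all 10 listed genes were found among the 22406 symbols of the gene tables: P4hb, Pdia3, Pdia4, Pdia5, Pdia6, Txndc5, Txndc11, Dnajc10, Creld2 and Ero1l. The stressor was thapsigargin (Tg), an inhibitor of the calcium pump of the ER membrane. Mouse embryonic fibroblasts (MEFs) were either WT or lacked the ER stress kinase PERK (PERK -/-), and both kinds stayed untreated or received 1 μM Tg over 1, 2, 5 or 8 h. Cells of the fibroblast line NIH3T3 stayed untreated or received 0.2 μM Tg over 2 or 7 h. With 13 conditions and 13 libraries there was no replicate, so a difference could not be set against the spread between replicates, and no test between conditions was made.

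Proteins that enter the ER often need disulfide bonds between cysteines to fold. PDIs of the ER lumen, which carry thioredoxin-like domains, make these bonds, shuffle wrong ones and break them, and Ero1 oxidases pass the electrons they collect on to oxygen. When unfolded proteins build up in the ER, the sensors IRE1, ATF6 and PERK start the unfolded protein response (UPR). PERK phosphorylates eIF2α and so lowers the start of translation on most mRNAs, while IRE1 and ATF6 raise the transcription of ER chaperones and folding enzymes. A footprint is a piece of mRNA covered by a ribosome, and its count reports how much a coding sequence was being translated relative to the others in the same library. It does not separate a change in mRNA from a change in ribosomes per mRNA.

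Levels are given as TPM, transcript shares scaled by length to the same total in each library, so a change is relative to all other genes. Library depth, as the total of expected counts, was 11949174 for the WT control and 3609292, 2525029, 5617552 and 11178364 for Tg over 1, 2, 5 and 8 h. For PERK -/- MEFs it was 6735073, 10011722, 14799515, 8035736 and 7446112 in the same order. NIH3T3 cells had 11121006 untreated, 2569965 after 2 h and 5756011 after 7 h. The early WT and NIH3T3 libraries were therefore the shallowest, and in them Txndc11 was the member with the fewest counts, at 93, 100 and 80. A change is the log2 ratio of TPM to the control of the same cells, with values under 4 TPM raised to 4. The 95% interval beside it is that of the change in expected counts per library total, exact and conditional (Clopper-Pearson), and covers counting error only. It is not an interval of the TPM change, which can lie outside it, as for Txndc5 in WT MEFs at 8 h (-0.51 against -0.46 to -0.34). The Tg libraries of WT MEFs share 1 control, those of PERK -/- MEFs a different one and those of NIH3T3 cells their own, so the changes of a series are not independent. A gene was called up or down when it changed at least 2-fold, and the background was the share of expressed genes (mean of 2 TPM or more in the table) called in the same way. A share near the background is not a result about the members.

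All 10 genes lie on chromosomes of the GRCm38.p6 build, spread over 8 of them. The lumenal isomerases are P4hb at chr11:120560298-120573253, Pdia3 at chr2:121413902-121438687, Pdia4 at chr6:47796141-47813512, Pdia5 at chr16:35397308-35490919, Pdia6 at chr12:17266589-17284785 and Txndc5 at chr13:38500266-38528824. The others are Txndc11 at chr16:11074911-11134645, Dnajc10 at chr2:80315446-80354055, Creld2 at chr15:88819646-88826681 and Ero1l, listed by RefSeq as Ero1a, at chr14:45283087-45318572.

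RefSeq promoter windows of the members (250 bases before to 50 bases after the start site, 13 windows for the 10 genes) were searched on both strands for letters known from UPR promoters. The ER stress element, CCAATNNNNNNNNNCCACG, is read by ATF6 with the CCAAT factor NF-Y. It was present in the windows of Pdia6 and Creld2, and in 39 of 32851 RefSeq windows (0.119%). In the Pdia6 window it began at position -98 from the start site on the transcribed strand, and in the Creld2 window at -126 on the opposite strand. The UPR element TGACGTGG, to which XBP1 and ATF6 bind, was found at -102 in 1 of the 2 Txndc11 windows and at -138 in 1 of the 3 Txndc5 windows, against 0.676% of all windows. The ER stress element II, spelled ATTGG, any base and CCACG, was in no window of a member and in 0.0365% of all windows. CARE, TGATGNAA, an element read by ATF4 with C/EBP factors, was in 1 Txndc5 window and in 3.97% of all windows. A relaxed ER stress element that keeps only CCA of its second part, CCAATNNNNNNNNNCCA, was chosen after the data were seen. Every match of the full element holds it, and it was also present in Pdia3, at -79 and -29, and in Pdia4, at -106 on the opposite strand, against 1.09% of all windows. The windows of P4hb, Pdia5, Dnajc10 and Ero1l held none of these motifs. The bases after the start site were found in a transcript of the gene for 12 of the 13 windows and on neither strand for that of Pdia4, whose strand and start site were taken as RefSeq gives them. A match describes letters in a window and no binding was measured. The sequences are shown 5′ to 3′ on the strand of the gene with the match in capitals, as the 250 bases before the start site for the 2 genes with the full element and as the match with up to 30 bases on each side for the relaxed element and the UPR element. The CARE match is not printed.
Creld2, chr15:88819396-88819645, plus strand: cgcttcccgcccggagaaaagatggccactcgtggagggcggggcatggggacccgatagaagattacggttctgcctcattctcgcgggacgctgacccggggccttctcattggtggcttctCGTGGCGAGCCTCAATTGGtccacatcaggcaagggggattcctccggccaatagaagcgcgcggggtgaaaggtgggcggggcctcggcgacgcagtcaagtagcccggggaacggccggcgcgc
Pdia6, chr12:17266339-17266588, plus strand: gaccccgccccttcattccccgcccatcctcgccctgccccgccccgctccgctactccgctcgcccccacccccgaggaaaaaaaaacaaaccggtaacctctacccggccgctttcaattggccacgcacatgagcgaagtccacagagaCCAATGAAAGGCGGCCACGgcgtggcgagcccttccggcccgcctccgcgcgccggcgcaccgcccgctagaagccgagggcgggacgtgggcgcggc
Pdia4, chr6:47813572-47813648, minus strand: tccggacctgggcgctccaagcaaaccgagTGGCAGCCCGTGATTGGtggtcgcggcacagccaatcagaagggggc
Pdia3, chr2:121413793-121413901, plus strand: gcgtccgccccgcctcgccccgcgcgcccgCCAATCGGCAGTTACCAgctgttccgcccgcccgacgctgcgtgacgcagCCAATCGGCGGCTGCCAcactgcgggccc
Txndc11, chr16:11134597-11134664, minus strand: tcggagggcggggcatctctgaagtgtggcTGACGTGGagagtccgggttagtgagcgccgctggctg
Txndc5, chr13:38528015-38528082, minus strand: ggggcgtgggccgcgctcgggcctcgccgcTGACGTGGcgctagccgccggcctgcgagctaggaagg

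The targeted gene Eif2ak3, which encodes PERK, was checked first. WT MEFs had 254 counts untreated and 52, 48, 187 and 365 counts after 1, 2, 5 and 8 h of Tg, or 21.3, 14.4, 19.01, 33.3 and 32.7 per 10⁶ counts (CPM). In the libraries labelled PERK -/- they were 74, 90, 113, 106 and 142, or 10.99, 8.99, 7.64, 13.2 and 19.1 CPM, below the WT library at all 5 times. By TPM the WT values were 6.03, 8.49, 6.20, 13.98 and 15.7 and the PERK -/- values 11.2, 7.32, 5.21, 14.9 and 17.2, so the PERK -/- value was the lower one at 1 and 2 h and the higher one in the control and at 5 and 8 h. Footprints of the gene were thus not absent under the PERK -/- label. The tables give 1 value per gene and not the exons covered, so they do not check the deleted part, and the genotype is taken from the labels. In NIH3T3 cells the counts were 385, 66 and 286, or 34.6, 25.7 and 49.7 CPM.

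Markers of fibroblasts were high in every library. Vim, the intermediate filament of mesenchymal cells, lay between 1549 and 3315 TPM and was the highest of them in each library but the NIH3T3 control, where Col1a2 was. Col1a1, a chain of type I collagen, lay between 269 and 2207 TPM. In NIH3T3 cells Col3a1 was at most 1.67 TPM and Pdgfrb at most 5.36 TPM, so these 2 of the 6 fibroblast markers were low in that line. The muscle factors Myod1 and Myog and the macrophage gene Adgre1 were at 0 in all 13 libraries. Sums over the markers of blood, endothelium and epithelium did not pass 4.49 TPM in any library. The summed level of the fibroblast markers moved with Tg, from 5652 TPM in the WT control to 5044 at 1 h and 5282 at 8 h, and from 6048 in the PERK -/- control to 3901 at 2 h and 4947 at 8 h. In NIH3T3 cells it went from 4576.5 TPM to 3348 at 2 h and 3245 at 7 h. The sum hides markers that moved apart. In PERK -/- MEFs at 2 h Col1a1 went from 2207 to 672 TPM, Col1a2 from 921 to 357, Col3a1 from 144 to 55.2 and Pdgfrb from 68.0 to 25.1. Thy1 went from 127 to 115 TPM there, and Vim from 2581 to 2677. The part of the markers in the members' changes was not tested.

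Without stress the members covered a wide range of levels. In the WT control Pdia3 stood at 1673 TPM, P4hb at 1077, Pdia6 at 748, Txndc5 at 382 and Pdia4 at 303, while Dnajc10 stood at 117, Creld2 at 94.2, Pdia5 at 71.0, Ero1l at 33.0 and Txndc11 at 9.03. The same 3 genes led in the PERK -/- and NIH3T3 controls, and Txndc11 was lowest in all 3. Between the genotypes no untreated level differed by 2-fold. P4hb, Pdia4 and Creld2 were higher in the PERK -/- control by log2 ratios of 0.46 (95% interval of counts 0.42 to 0.49), 0.51 (0.46 to 0.56) and 0.48 (0.35 to 0.60). Dnajc10 was the only member with an interval below 0, at -0.23 (-0.32 to -0.15). Intervals of Pdia5, Ero1l and Txndc11 held 0, so no genotype difference was detectable at this depth for them. In the NIH3T3 control, whose table was made separately, Creld2 (192 TPM) and Ero1l (66.7 TPM) had levels above those of both MEF controls, and Dnajc10 (64.6 TPM) and Txndc5 (271 TPM) lay below them.

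**Figure D1:**
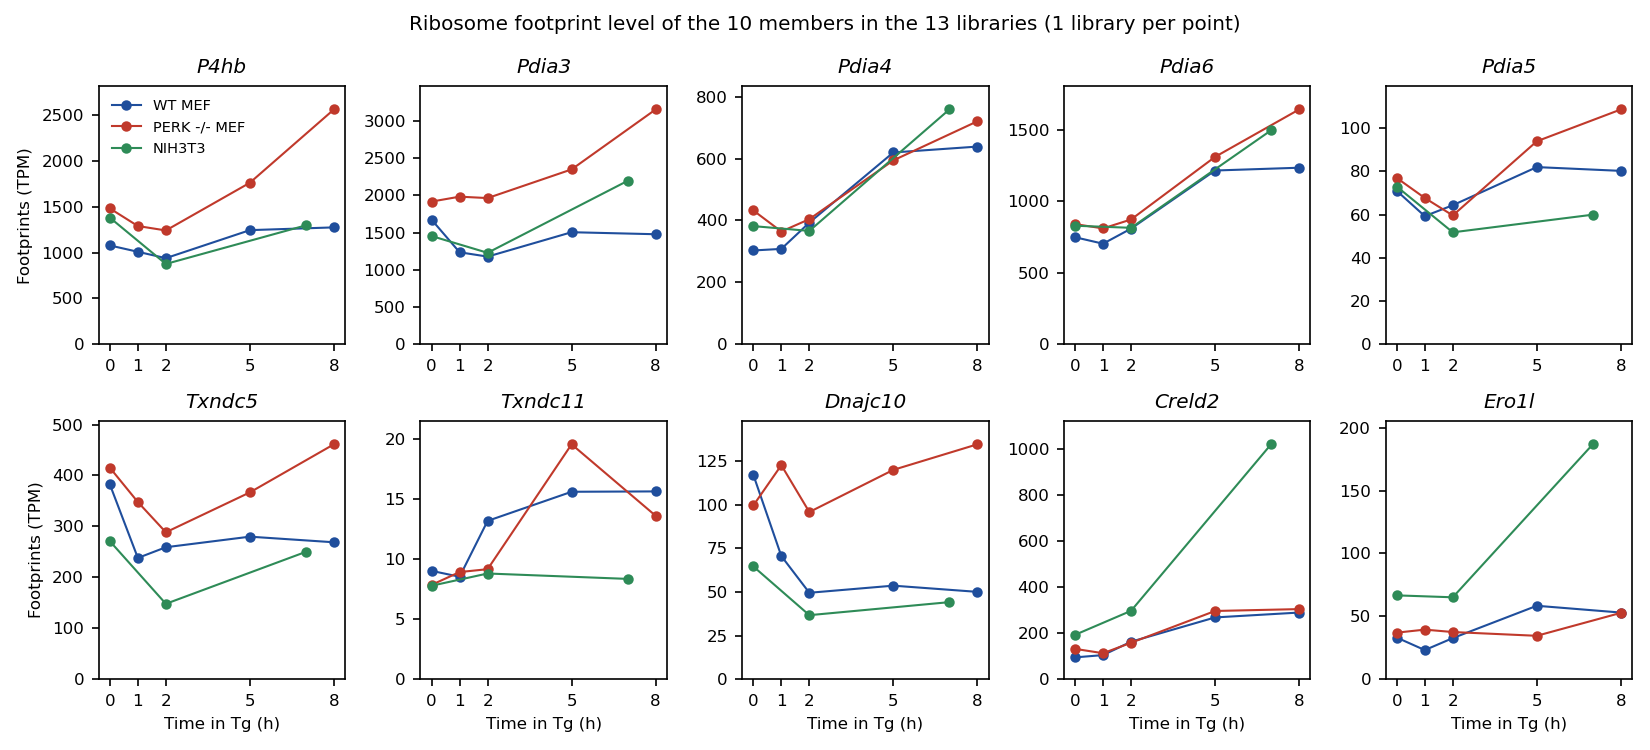
Footprint level in TPM (vertical axes, each from 0) against time in Tg in hours for each of the 10 genes, with WT MEFs in blue, PERK -/- MEFs in red and NIH3T3 cells in green, 1 library per point. Creld2 climbs in all 3 kinds of cell and to 1019 TPM in NIH3T3 cells at 7 h, while Dnajc10 falls from 117 to 50.1 TPM in WT MEFs and ends at 135 TPM in PERK -/- MEFs.

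The 10 genes did not respond as a block. In WT MEFs no member was up or down at least 2-fold at 1 h, against 4.33% of the 10432 expressed genes up and 2.29% down. At 2 h none was up (5.66% of expressed genes) and Dnajc10 was down (4.01%). At 5 h Pdia4 and Creld2 were up (5.86%) and Dnajc10 was down (3.55%), and the same calls were made at 8 h (6.45% and 3.87%). With TMM factors or DESeq2 size factors 1 member was up at both times, because Pdia4 fell just under 2-fold. The 5 and 8 h libraries were much alike, with a standard deviation of the log2 step of 0.152 against 0.307 from 2 to 5 h. The calls at 8 h therefore add little to those at 5 h. The median change of the members was -0.18 at 1 h and -0.08 at 2 h, and then 0.45 at 5 h and 0.46 at 8 h, while the median of all expressed genes was 0.00, 0.00, 0.00 and 0.01. At 1 h, 7 members had intervals below 0 and none had one above. By 8 h 7 had intervals above 0 and Pdia3, Txndc5 and Dnajc10 had intervals below it. The share of all expressed genes with such intervals is not given, so these counts are not a result about the members.

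In PERK -/- MEFs, as in WT MEFs, the up calls were made at 5 and 8 h. No member was called at 1 h, against 0.719% of expressed genes up and 3.38% down, or at 2 h, against 0.623% up and 5.78% down. At 5 h Txndc11 and Creld2 were up (3.26%) and none was down (4.77%), and at 8 h Creld2 alone was up (3.28%) and none was down (2.73%). All 10 members were above their control at 8 h, each with an interval above 0, and their median change was 0.73 against 0.04 for all expressed genes. The share of all expressed genes above their control is not given, so only the medians can be compared. The earlier medians were -0.12, -0.02 and 0.29, and those of all expressed genes -0.06, -0.11 and 0.00. In NIH3T3 cells no member was called at 2 h, against 5.76% of the 10117 expressed genes up and 3.76% down, and Creld2 and Ero1l were up at 7 h (7.01%) with none down (8.06%). The medians there were -0.15 at 2 h and 0.35 at 7 h, and those of all expressed genes -0.13 and 0.00. Most of the changes described here lay under 2-fold.

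**Figure D2:**
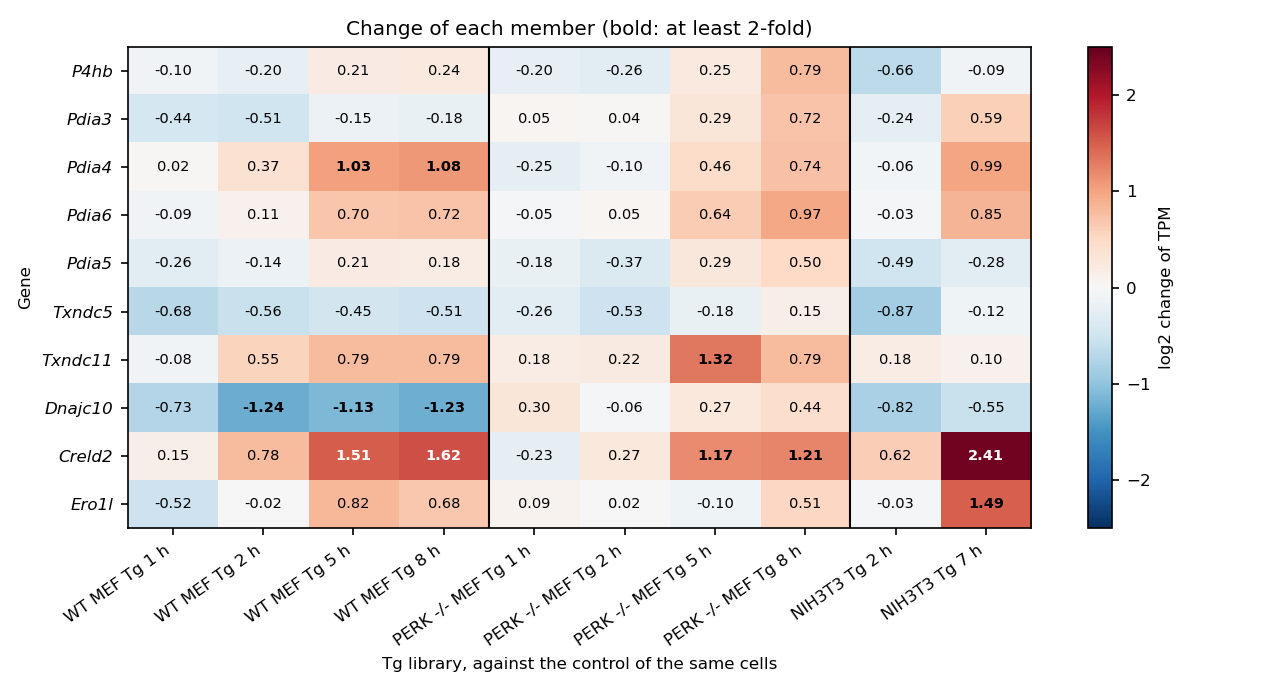
Log2 change of TPM (colour, red up and blue down, with the value printed) of each gene (rows) in each of the 10 Tg libraries (columns) against the control of the same cells, with changes of at least 2-fold in bold. Creld2 has the highest value in every late column but that of PERK -/- MEFs at 5 h, where Txndc11 is at 1.32, and Dnajc10 has the lowest in all 4 WT columns.

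Among the lumenal isomerases, Pdia4 and Pdia6 had their higher values late in all 3 kinds of cell. Pdia4, also known as ERp72, stood in WT MEFs at 303 TPM untreated and at 308, 393, 619 and 639 TPM after 1, 2, 5 and 8 h. PERK -/- MEFs had 432 TPM in the control and then 364, 404, 594 and 720 TPM, and NIH3T3 cells 382, 366 and 758 TPM. The gain was thus seen from 2 h in WT MEFs and from 5 h in PERK -/- MEFs. At 8 h the log2 change was 1.08 (1.04 to 1.12) in WT MEFs and 0.74 (interval of counts 0.68 to 0.77) in PERK -/- MEFs, and at 7 h in NIH3T3 cells it was 0.99 (0.95 to 1.03). Its calls depend on the scaling. With TMM factors the log2 change was 0.95 at 5 h and 0.98 at 8 h in WT MEFs, just under 2-fold, and 1.08 in NIH3T3 cells at 7 h, just over it.

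Pdia6, or P5, an isomerase that binds the chaperone BiP, followed Pdia4 closely with smaller steps in WT MEFs. It stood there at 748, 703, 808, 1215 and 1234 TPM, in PERK -/- MEFs at 840, 810, 872, 1310 and 1641 TPM, and in NIH3T3 cells at 829, 814 and 1496 TPM. The late levels were above the control in each kind of cell, and the early ones close to it. The log2 change at 8 h was 0.72 (0.69 to 0.76) in WT MEFs and 0.97 (interval of counts 0.92 to 1.00) in PERK -/- MEFs, and at 7 h 0.85 (0.82 to 0.89) in NIH3T3 cells, below the 2-fold line in all 3.

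P4hb and Pdia3 were the 2 most abundant members in the controls. P4hb is the founding PDI and also a subunit of the collagen prolyl 4-hydroxylase and of the triglyceride transfer protein. In WT MEFs it stood at 1077, 1008, 939, 1244 and 1274 TPM, and in PERK -/- MEFs at 1481, 1289, 1241, 1761 and 2560 TPM. Both were below their control at 1 and 2 h, and at 8 h the log2 change was 0.24 (0.22 to 0.27) in WT and 0.79 (interval of counts 0.75 to 0.81) in PERK -/- MEFs. NIH3T3 cells had 1380, 875 and 1296 TPM, with log2 changes of -0.66 at 2 h and -0.09 at 7 h.

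Pdia3, or ERp57, works on glycoproteins held by calnexin and calreticulin. Its level in WT MEFs was 1673, 1235, 1177, 1505 and 1478 TPM, so each Tg library lay below the control. The PERK -/- libraries had 1916, 1982, 1963, 2348 and 3153 TPM, and each Tg library lay above the control. The log2 changes of TPM were -0.44, -0.51, -0.15 and -0.18 in WT MEFs and 0.05, 0.04, 0.29 and 0.72 in PERK -/- MEFs. NIH3T3 cells had 1453, 1228 and 2194 TPM, below the control at 2 h as in WT MEFs and above it at 7 h by 0.59 (interval of counts 0.57 to 0.62).

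Txndc5, or ERp46, was lower than its control in 9 of the 10 Tg libraries by TPM. For PERK -/- MEFs at 5 h this direction is not held by the counts, whose change was -0.02 (-0.09 to 0.05). WT MEFs had 382 TPM in the control and 238, 259, 280 and 269 TPM in Tg, and PERK -/- MEFs had 415, 348, 288, 367 and 461 TPM. The level therefore stayed down in WT MEFs and came back in PERK -/- MEFs, where the 8 h value was above the control by 0.15 (interval of counts 0.11 to 0.24). NIH3T3 cells had 271, 148 and 250 TPM, and the log2 change at 2 h, -0.87, was the lowest change of a member in that library. Pdia5, or PDIR, was not called in any library. It ranged from 59.3 to 82.0 TPM in WT MEFs, from 59.6 to 109 TPM in PERK -/- MEFs and from 51.8 to 73.0 TPM in NIH3T3 cells, and its highest log2 change was 0.50 (interval of counts 0.36 to 0.62) in PERK -/- MEFs at 8 h.

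Txndc11, a membrane protein of the ER with thioredoxin-like domains, was the least abundant member. WT MEFs had 9.03, 8.54, 13.2, 15.6 and 15.7 TPM, PERK -/- MEFs 7.86, 8.93, 9.17, 19.6 and 13.6 TPM, and NIH3T3 cells 7.79, 8.81 and 8.36 TPM. Both MEF series were higher at 5 and 8 h than in the control, while in NIH3T3 cells the intervals of counts held 0 at both times. The 5 h change in PERK -/- MEFs, 1.32 (1.05 to 1.60), rested on 442 against 148 counts, and at 8 h it was 0.79 (interval of counts 0.59 to 1.17) with 300 counts. In WT MEFs, with counts thinned to the smallest library, the changes of 0.79 at 5 h and at 8 h became 1.05 and 1.04, which pass 2-fold. The thinned values are CPM from 1 random draw and not TPM. Without thinning, the changes of counts per library total were already 0.89 at both times.

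Dnajc10, or ERdj5, is a reductase that opens disulfides of misfolded proteins before they leave the ER and works with BiP through its J domain. In WT MEFs it stood at 117 TPM untreated and at 70.6, 49.5, 53.6 and 50.1 TPM with Tg, so all 4 Tg libraries were below the control. PERK -/- MEFs had 99.6 TPM in the control and 123, 95.9, 120 and 135 TPM in Tg. The WT level was 2.37-fold lower at 2 h, 2.19-fold at 5 h and 2.34-fold at 8 h, with a log2 change at 8 h of -1.23 (-1.32 to -1.14), while that of PERK -/- MEFs was 0.44 (interval of counts 0.34 to 0.52). In WT MEFs at 8 h 1.99% of expressed genes had a lower or equal change. NIH3T3 cells, at 64.6, 36.7 and 44.2 TPM, moved in the WT direction, with log2 changes of -0.82 at 2 h and -0.55 at 7 h.

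Creld2, an ER stress gene whose product has EGF-like domains and CXXC motifs and has been described as PDI-like, rose more than the other members in WT MEFs and NIH3T3 cells. WT MEFs had 94.2, 104, 162, 268 and 289 TPM, and PERK -/- MEFs 131, 112, 158, 296 and 304 TPM. The 2 series reached like levels from unequal controls, so by 8 h WT MEFs had gained 3.07-fold and PERK -/- MEFs 2.32-fold. On the log2 scale these were 1.62 (interval of counts 1.52 to 1.71) and 1.21 (interval of counts 1.09 to 1.31). In NIH3T3 cells the level went from 192 to 296 and 1019 TPM, 5.30-fold above the control at 7 h, a log2 change of 2.41 (2.34 to 2.48).

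Ero1l encodes the oxidase that takes electrons from reduced PDI. It stood at 33.0, 23.1, 32.6, 58.4 and 53.0 TPM in WT MEFs, at 37.0, 39.4, 37.5, 34.5 and 52.7 TPM in PERK -/- MEFs and at 66.7, 65.1 and 187 TPM in NIH3T3 cells. WT MEFs were above their control at 5 h, with a log2 change of 0.82 (0.64 to 1.00), when the PERK -/- value was -0.10 and its interval of counts (-0.28 to 0.14) held 0. By 8 h the changes were 0.68 (0.53 to 0.84) and 0.51 (0.31 to 0.70). In NIH3T3 cells the gene was 2.80-fold above the control at 7 h, while at 2 h no change was detectable at this depth.

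To compare the courses with and without PERK, the change in PERK -/- MEFs minus that in WT MEFs was taken at the same time from counts per library total, with a 95% interval from the normal approximation to the counting error of the 4 libraries. The 2 changes each use their own control. Dnajc10 had the widest difference at each of the 4 times, at 1.05 (0.90 to 1.20), 1.26 (1.07 to 1.44), 1.44 (1.29 to 1.58) and 1.65 (1.53 to 1.78), in the direction of higher values without PERK. The difference of Pdia3 was 0.50, 0.61, 0.48 and 0.89 (0.85 to 0.92 at 8 h). That of Txndc5 was 0.43 (0.31 to 0.54) at 1 h, 0.04 (-0.09 to 0.17) at 2 h, 0.36 (0.26 to 0.46) at 5 h and 0.57 (0.48 to 0.67) at 8 h, so it was clear of 0 at 3 of the 4 times. P4hb had -0.09, 0.01 and 0.08 at 1, 2 and 5 h and 0.54 (0.50 to 0.58) at 8 h.

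In the other direction, Pdia4 had the lower change without PERK at each time, by differences of -0.25, -0.40, -0.53 and -0.35 (-0.41 to -0.29 at 8 h). Creld2 had -0.35, -0.45, -0.30 and -0.41 (-0.56 to -0.27 at 8 h). Higher untreated levels in PERK -/- MEFs enter both. A lower untreated level (log2 ratio of counts -0.24) enters the difference of Dnajc10 and raises it. That of P4hb was higher (0.46), which lowers its difference. At 8 h P4hb stood at 2560 TPM in PERK -/- MEFs against 1274 TPM in WT MEFs. Ero1l changed sign over time, from 0.62 (0.28 to 0.97) at 1 h to -0.89 (-1.16 to -0.61) at 5 h, and at 8 h its interval (-0.43 to 0.07) held 0. Pdia6 differed by at most 0.23 (0.18 to 0.29), at 8 h, and Pdia5 had an interval clear of 0 at 8 h alone, at 0.31 (0.15 to 0.48). For Txndc11 the difference was 0.43 (0.07 to 0.79) at 5 h, and its intervals held 0 at the other 3 times, with -0.01 (-0.36 to 0.34) at 8 h. These intervals leave out the spread between cultures, which 1 library per condition cannot give.

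**Figure D3:**
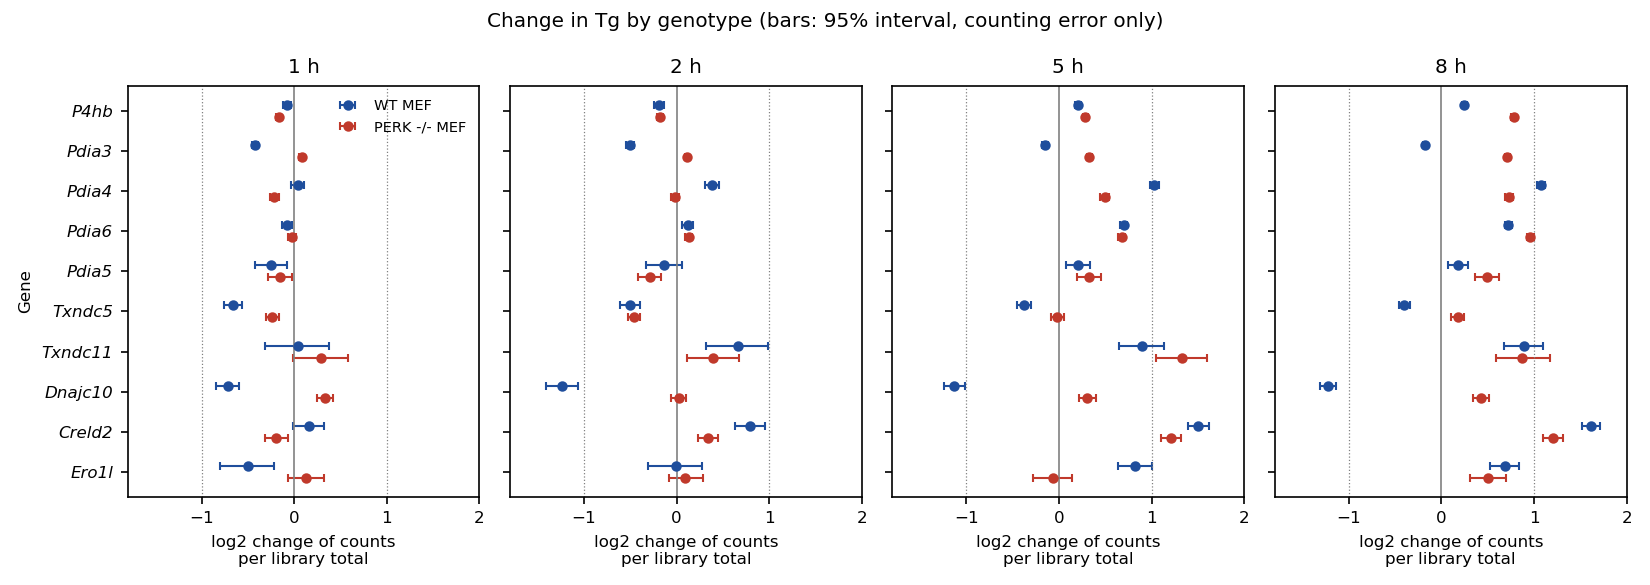
Log2 change of counts per library total (horizontal axes) of the 10 genes at 1, 2, 5 and 8 h in WT MEFs (blue) and PERK -/- MEFs (red), where bars are 95% intervals for counting error only and dotted lines mark 2-fold. Dnajc10 and Pdia3 lie on opposite sides of 0 at 8 h, at -1.23 and 0.43 and at -0.18 and 0.71, whereas Pdia6 lies at 0.72 and 0.96.

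Time steps within a series show when the members moved. Counts of members that were higher are given without the share of all genes, so only the medians can be compared. From 1 to 2 h 7 of 10 members were higher in WT MEFs, with a median step of 0.16 against 0.01 for all genes. Dnajc10 was lower in that step, at -0.51 (interval of counts -0.72 to -0.32). In PERK -/- MEFs 4 of 10 were higher, with a median of -0.03 against -0.04. From 2 to 5 h all 10 members were higher in WT MEFs, with a median step of 0.38 against 0.02 for all genes of 16 TPM or more, though the intervals of counts of Txndc5, Txndc11 and Dnajc10 held 0. In PERK -/- MEFs 9 of 10 were higher, with a median of 0.53 against 0.10. From 2 to 7 h in NIH3T3 cells 9 of 10 were higher, with a median of 0.80 against 0.18, and the intervals of Pdia5, Txndc11 and Dnajc10 held 0. From 5 to 8 h the WT members barely moved, between -0.14 for Ero1l and 0.11 for Creld2. PERK -/- members gained again in that step, by a median of 0.30 against 0.06, and Txndc11 was the single one with a lower TPM, at -0.52, while for Creld2 the interval of counts held 0. Over 5993 genes of 16 TPM or more on average the standard deviation of the log2 step from 5 to 8 h was 0.152 in WT MEFs and 0.483 in PERK -/- MEFs, counting error included.

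Summed over the 10 members, footprints took 4508 TPM in untreated WT MEFs and 3758, 3898, 5340 and 5381 TPM with Tg. In PERK -/- MEFs the sum was 5437 TPM and then 5144, 5128, 6943 and 9149 TPM, and in NIH3T3 cells 4719, 3890 and 7313 TPM. The sum was thus below the control early and above it late in each kind of cell, although the early PERK -/- ratios, 0.946 and 0.943, came close to no change with TMM factors (log2 ratios of -0.0027 and 0.0061). Without Pdia3 the early PERK -/- log2 ratios lay further below 0 instead, at -0.16 and -0.15. The last ratios to the control were 1.19 in WT MEFs, 1.68 in PERK -/- MEFs and 1.55 in NIH3T3 cells. Pdia3, P4hb and Pdia6 together held from 68.2% of the sum, in NIH3T3 cells at 7 h, to 80.4%, in PERK -/- MEFs at 8 h. The WT log2 ratio at 8 h, 0.26, became 0.46 without Pdia3 and 0.16 with TMM factors or DESeq2 size factors, and at 2 h -0.21 became -0.059 without Pdia3.

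**Figure D4:**
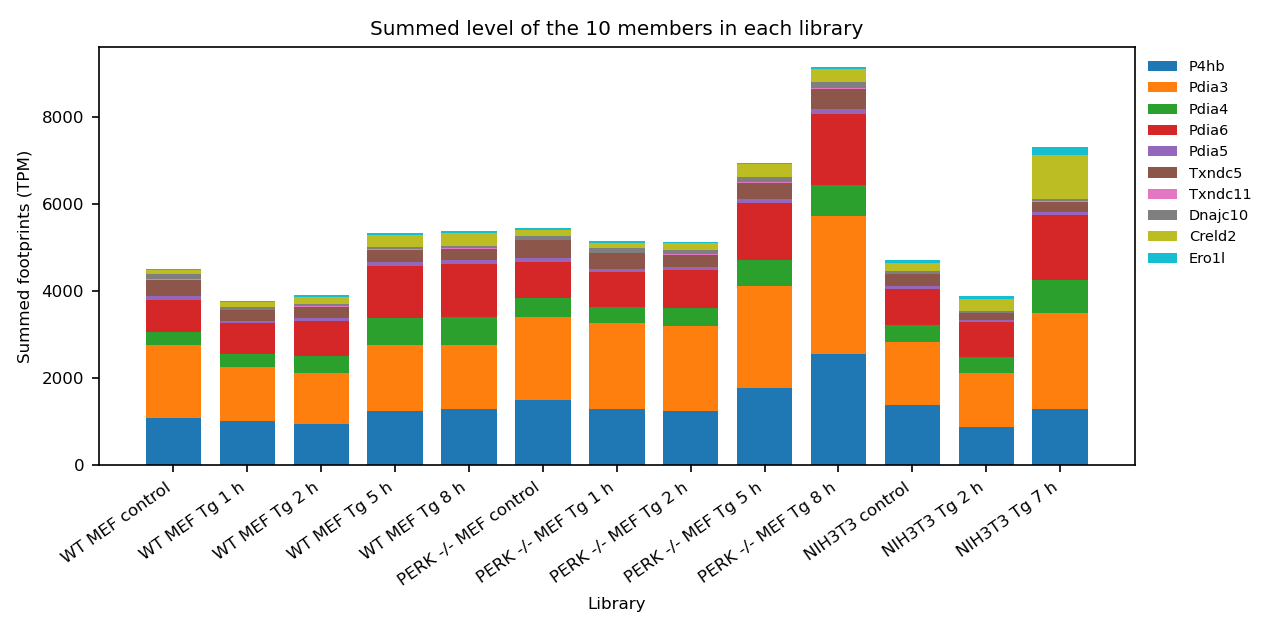
Summed footprint level in TPM (vertical axis, from 0) of the 10 genes in each of the 13 libraries, stacked by gene. The PERK -/- library of 8 h is the tallest bar at 9149 TPM, and in NIH3T3 cells at 7 h Creld2 takes 1019 of 7313 TPM.

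Courses were also compared gene by gene, as the Pearson correlation of log2 TPM over the 13 libraries after centring within WT MEFs, PERK -/- MEFs and NIH3T3 cells. These values describe shared courses in libraries that share controls and depth, and no p is given. Pdia4 and Pdia6 had r = 0.98, Pdia4 and Creld2 0.95 and Pdia6 and Creld2 0.94. Ero1l was next to this group, with r = 0.86 to Pdia4. P4hb went with Pdia5 (0.93). Dnajc10 lay apart, with r = 0.69 to Txndc5 and -0.41 to Creld2. Txndc11 was too low for this comparison, which took 5103 genes averaging 16 TPM or more in each table.

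For each member the 3 most alike genes outside the list were named. The courses nearest to Pdia4 were those of Hyou1 (r = 0.99), an ER chaperone of the Hsp70 family, Sel1l (0.97), a subunit of the ER degradation ligase, and Dnajc3 (0.96), a cochaperone of BiP. Dnajc3 (0.98), Tfg (0.97) and Hyou1 (0.97) were nearest to Creld2. Derl1 (0.98), a channel protein of ER degradation, Tbl2 (0.97) and Slc31a1 (0.96) were nearest to Pdia6.

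For P4hb the nearest were Ddost (0.97), a subunit of the oligosaccharyltransferase, Ndufb11 (0.95) and Aph1a (0.95), and for Pdia5 Rpn2 (0.97), of the same transferase, Aph1a (0.96) and Xrcc1 (0.96). Pdia3 was nearest to Fam8a1 (0.93), Ppib (0.91), a prolyl isomerase of the ER, and Dhx40 (0.91). The genes nearest to Txndc5 were Cpe (0.95), Neo1 (0.94) and Golm1 (0.93). Dnajc10 was nearest to Tmem30a (0.96), Ppp1cc (0.95) and M6pr (0.94), and Ero1l to Map4 (0.95), Dnaja3 (0.94) and Stam (0.93).

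The other PDI family genes formed a list of 15, of which 10 were expressed in MEFs and 9 in NIH3T3 cells. Their medians at the last time were below those of the members in all 3 kinds of cell. In WT MEFs at 8 h their median change was -0.39, with Creld1, a relative of Creld2, up at 1.33 and Erp44 and Tmx3 down at -1.22 and -1.23. Erp44, which holds Ero1 oxidases back in the early secretory pathway, went from 161 TPM in the WT control to 76.7, 59.4, 74.9 and 69.0 TPM, and was down at least 2-fold at all 4 times. In PERK -/- MEFs it stood at 182, 146, 133, 187 and 158 TPM. The PERK -/- median at 8 h was 0.23. In NIH3T3 cells at 7 h the median was -0.35, and Tmx4, a membrane-bound family member, was down at -1.75. Pdia2, Pdilt, Agr2, Agr3 and Erp27 were at 0 TPM in every library.

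Of the 8 ER oxidases and electron carriers, all expressed in both tables, Ero1lb rose most often. This second Ero1 oxidase went from 4.32 TPM in the WT control to 17.4 and 15.99 TPM at 5 and 8 h, from 10.3 TPM in the PERK -/- control to 22.1 and 26.6 TPM, and from 4.23 to 14.6 TPM in NIH3T3 cells at 7 h. Each of these 5 changes was at least 2-fold, and in PERK -/- MEFs at 1 h it was down at 4.56 TPM. Gpx8, a peroxidase of the ER membrane, was down in WT MEFs at 2, 5 and 8 h, from 182 to 81.1, 69.8 and 68.8 TPM, and in PERK -/- MEFs stood at 180, 169, 161, 138 and 209 TPM, below the control at 1, 2 and 5 h. By counts the PERK -/- log2 changes of Gpx8 at 1 and 2 h were -0.05 and -0.08, close to no change, and at 5 h -0.31. Gpx7, its lumenal relative, was up in PERK -/- MEFs at 8 h (1.05) and down in NIH3T3 cells at 2 and 7 h (-1.14 and -1.22). At 5 h in PERK -/- MEFs Vkorc1l1 was up (1.19) and Qsox2 was down (-1.32). Prdx4, Qsox1 and Vkorc1 were not called in any library. The median of the list at the last time was 0.07 in WT MEFs, 0.49 in PERK -/- MEFs and -0.16 in NIH3T3 cells.

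Partners of the members made a list of 9, of which 8 were expressed in MEFs (not Mttp) and 8 in NIH3T3 cells (not Foxred2). Hspa5, which encodes BiP, was up in 7 of the 10 Tg libraries and reached log2 changes of 2.40 in WT MEFs and 1.41 in PERK -/- MEFs at 8 h and 2.62 in NIH3T3 cells at 7 h. P4ha1, the catalytic partner of P4hb in collagen hydroxylation, went from 172 TPM in the WT control to 81.2 TPM at 2 h and 79.6 TPM at 8 h and was called down at those times. Canx, the membrane lectin that presents glycoproteins to Pdia3, was down in WT MEFs at 2 h (-1.03) and stood at 721 TPM at 8 h against 1244 in the control. In PERK -/- MEFs Canx was at 1437 TPM in the control and 1068, 1092, 1245 and 1479 TPM with Tg, so it lay below the control at 1, 2 and 5 h there. Tapbp, tapasin, which is linked to Pdia3 by a disulfide, and Foxred2, a partner of Dnajc10, were down in PERK -/- MEFs at 1 h (-1.32 and -1.07) and 2 h (-1.66 and -1.24). Calr, P4ha2 and P4ha3 were not called in any library, nor was Mttp in NIH3T3 cells. The medians of the list at the last time were 0.04, 0.08 and -0.38 in the same order of cells.

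**Figure D5:**
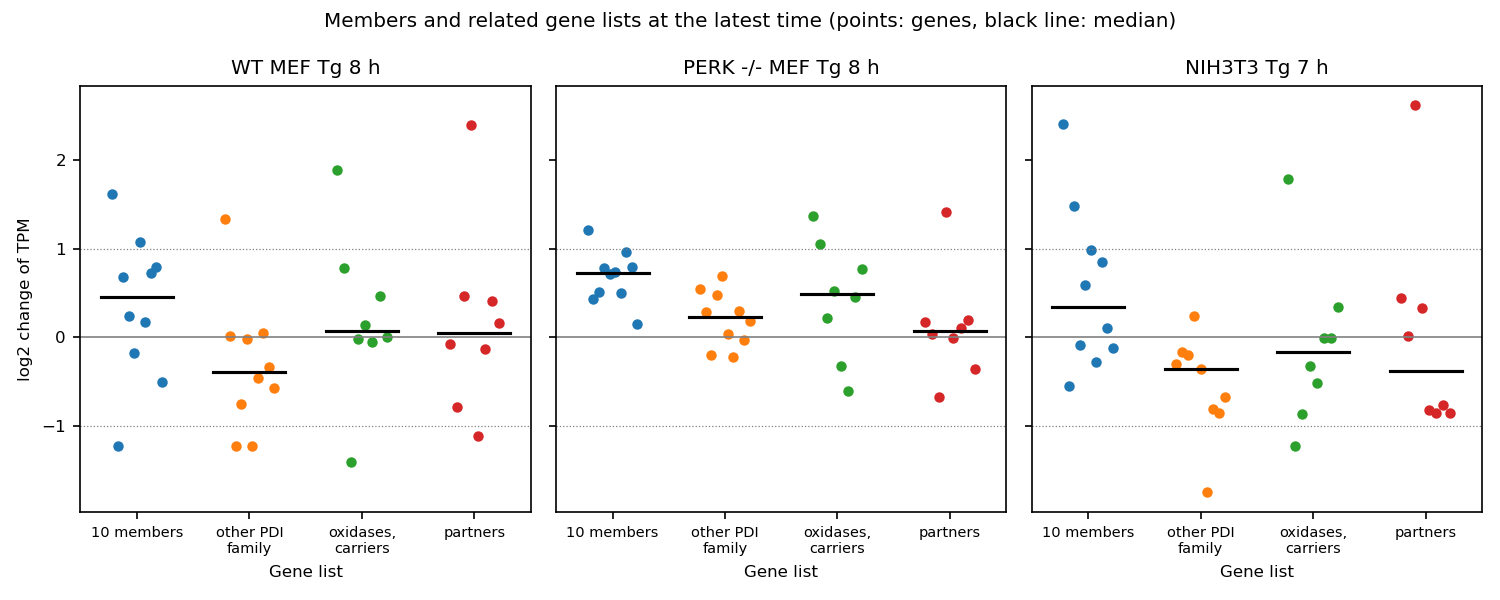
Log2 change of TPM (vertical axis) of the expressed genes of the 10 members and of the 3 related lists at the last time in WT MEFs, PERK -/- MEFs and NIH3T3 cells, 1 point per gene, with the median as a black line and 2-fold as dotted lines. In WT MEFs the members' median is 0.46 and that of the other PDI family genes -0.39, and in PERK -/- MEFs they are 0.73 and 0.23.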

How the data were processed

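Ribosome footprints of 13 libraries, 1 per condition, were analysed from 2 pairs of gene tables, 1 pair for MEFs and 1 for NIH3T3 cells. Footprints of 22 to 34 nt had been kept by the authors, who trimmed polyA tails, filtered out rRNA and tRNA using STAR and then used Bowtie2 on mm10 RefSeq coding sequences lacking the outer 30 nt, omitting transcripts shorter than 100 nt. The expected counts were deposited as whole numbers from RSEM, with no scaling between libraries. TPM values were scaled by the authors within each library with RSEM. Tool versions were not given in the sources used here. Changes, intervals and calls were computed with Python 3.11.15, numpy 2.4.6, pandas 2.3.3 and scipy 1.17.1, checked on simulated data, and drawn with matplotlib 3.10.9. TMM factors came from edgeR 4.0.16 and size factors from DESeq2 1.42.0 in R 4.3.3, and served only as alternatives.

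Members and lists were chosen with earlier results of these data known. The named genes are the members, the 3 lists, Eif2ak3, the cell type markers and, for each member, the 3 genes of highest likeness. Promoter windows and gene positions came from RefSeq (GRCm38.p6, the assembly of mm10), with all 10 members matched, Ero1l by its synonym. Protein sequences were not used, so motifs of the proteins were not analysed here. Tried as alternatives: a 1 TPM floor, adding 1 TPM in place of a floor, TMM factors, DESeq2 size factors, CPM, counts thinned to the smallest library, fold thresholds of 1.5 and 3, other limits on mean TPM for the background, and the sum without Pdia3. Thinned counts came from 1 random draw and were compared as CPM. A relaxed ER stress element, the subtraction of the all-gene median and the comparison of neighbouring libraries were added after seeing the data.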

Additional observations from a re-analysis of the deposited data

Results flagged for a closer look

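In 8 cases a member moved in opposite directions in WT and PERK -/- MEFs at the same time, with both counting intervals clear of 0. The share of all expressed genes that meet this rule is not given, so the number of cases is not a result about the members. Genes of the related lists met it too, so it is not particular to the members. Among the other PDI family genes these included Tmx1 at 8 h (WT -0.75, PERK -/- 0.47). Tmx3 met it at 1 h (WT -0.51, PERK -/- 0.16) and 2 h (WT -0.86, PERK -/- 0.17). Gpx8 met it at 8 h (WT -1.40, PERK -/- 0.25). Some met it with WT up, such as Qsox1 at 2 h (WT 0.42, PERK -/- -0.68) and Tapbp at 1 h (WT 0.27, PERK -/- -1.29). With 1 library per condition the difference was not tested between replicates. Values are the log2 change of counts in PERK -/- MEFs minus that in WT MEFs, followed by the WT and the PERK -/- change. Dnajc10 had 1.05 (WT -0.72, PERK -/- 0.33) after 1 h of Tg. After 5 h it had 1.44 (WT -1.13, PERK -/- 0.30), and after 8 h 1.65 (WT -1.23, PERK -/- 0.43). Pdia3 had 0.50 (WT -0.42, PERK -/- 0.08) after 1 h and 0.61 (WT -0.50, PERK -/- 0.11) after 2 h. Its later differences were 0.48 (WT -0.15, PERK -/- 0.33) after 5 h and 0.89 (WT -0.18, PERK -/- 0.71) after 8 h. Txndc5 had 0.57 (WT -0.40, PERK -/- 0.17) after 8 h.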

How the results depend on the processing

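Counts and sums that moved are given with the main value first, where a count has moved when it differs by more than 1.5 times. WT MEF Tg 1 h: log2 ratio of the summed TPM -0.26 (TMM factors -0.29, DESeq2 size factors -0.29, no Pdia3 -0.17), members down 0 (1.5-fold 2). WT MEF Tg 2 h: log2 ratio of the summed TPM -0.21 (TMM factors -0.27, DESeq2 size factors -0.27, no Pdia3 -0.059), members up 0 (1.5-fold 1), members down 1 (3-fold 0). WT MEF Tg 5 h: log2 ratio of the summed TPM 0.24 (TMM factors 0.17, DESeq2 size factors 0.16, thinned counts 0.23, no Pdia3 0.44), members up 2 (TMM factors 1, DESeq2 size factors 1, 1.5-fold 5, 3-fold 0), members down 1 (3-fold 0). WT MEF Tg 8 h: log2 ratio of the summed TPM 0.26 (TMM factors 0.16, DESeq2 size factors 0.16, thinned counts 0.23, no Pdia3 0.46), members up 2 (TMM factors 1, DESeq2 size factors 1, 1.5-fold 5, 3-fold 1), members down 1 (3-fold 0). PERK -/- MEF Tg 1 h: log2 ratio of the summed TPM -0.08 (TMM factors -0.0027, DESeq2 size factors -0.0033, CPM -0.044, thinned counts -0.028, no Pdia3 -0.16). PERK -/- MEF Tg 2 h: log2 ratio of the summed TPM -0.08 (TMM factors 0.0061, DESeq2 size factors 0.021, CPM -0.0062, thinned counts -0.011, no Pdia3 -0.15). PERK -/- MEF Tg 5 h: log2 ratio of the summed TPM 0.35 (CPM 0.39, thinned counts 0.39, no Pdia3 0.38), members up 2 (3-fold 0). PERK -/- MEF Tg 8 h: log2 ratio of the summed TPM 0.75 (TMM factors 0.68, DESeq2 size factors 0.68, no Pdia3 0.77), members up 1 (1.5-fold 6, 3-fold 0). NIH3T3 Tg 2 h: log2 ratio of the summed TPM -0.28 (TMM factors -0.23, DESeq2 size factors -0.22, CPM -0.18, thinned counts -0.19), members up 0 (1.5-fold 1), members down 0 (1.5-fold 3). NIH3T3 Tg 7 h: log2 ratio of the summed TPM 0.63 (TMM factors 0.72, DESeq2 size factors 0.74, CPM 0.59, thinned counts 0.57, no Pdia3 0.65), members up 2 (1.5-fold 5, 3-fold 1). Up to that limit, members up went from 2 to 3 in WT MEF Tg 5 h and WT MEF Tg 8 h with thinned counts, in PERK -/- MEF Tg 5 h at 1.5-fold and in NIH3T3 Tg 7 h under TMM and under DESeq2 scaling. Lower fold thresholds call more members by construction and higher ones fewer. TMM factors and DESeq2 size factors divide all TPM of a library by 1 value. They therefore shift the changes of all members and of the sum by the same amount. In WT MEF Tg 8 h this shift was -0.095 with TMM factors. For the other moves the cause was not tested. A floor of 1 TPM and a pseudocount moved no change of a member. Of 100 changes of members, DESeq2 size factors moved 39, TMM factors 37, CPM 16 and thinned counts 40, where moved means by more than 0.5 of the width of the counting interval. The sign turned, or the change became 0, in 8, 5, 5 and 12 of them, among them Txndc5 and Ero1l in PERK -/- MEFs at 5 h and Pdia4 there at 2 h, and no such value lay further from 0 than -0.23. The subtraction of the all-gene median and the relaxed ER stress element were chosen after seeing the data. No paired analysis was possible because the labels name no pairs of cultures and each condition had 1 library. WT and PERK -/- MEFs were set side by side at each time.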
